A study of Mus musculus with 4 samples.

Results

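The globin and iron handling genes described here are 10 of the 19057 genes with a named probe on the array: the haemoglobin chains Hba-a1, Hbb-bs and Hbb-bt, the iron exporter Slc40a1, the red cell anion exchanger Slc4a1, the transferrin receptor Tfrc, the ferritin chains Fth1 and Ftl1, the haem-degrading enzyme Hmox1 and the transcription factor Spic. They were taken by gene symbol from the annotation of the array, which gave 23 probes, 11 of them for globins. The globins and Slc40a1 were chosen by their measured intensities, which were higher in dKO cells in this same comparison. Slc4a1 and Spic were likewise treated as chosen for their difference. The differences of all these genes are given as a description without a test. Ferritin, transferrin receptor and Hmox1 were included to ask whether they moved with the globins and Slc40a1, and were tested.

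The cells were CD4+CD62L-CD44+ T cells, the surface phenotype of effector memory helper cells, sorted by flow cytometry from spleen and lymph nodes of C57BL/6 mice. The dKO group (2 arrays, numbered 1 and 2) came from mice that lacked MEKK2 and carried 1 floxed and 1 null allele of MEKK3 (MEKK3F/-) with Lck-Cre. Cre under the Lck promoter acts in T lineage cells, while the MEKK2 deletion and the null MEKK3 allele are present in every cell of these animals. The WT group (2 arrays, numbered 1 and 2) came from wild type mice, for which no Cre or floxed allele is labelled. Neither age nor the number of animals behind an array is given, so the spread between arrays may be partly technical.

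Haemoglobin is built from alpha and beta globin chains around haem, and globin messenger RNA is made by developing red cells and persists in reticulocytes. Iron enters most cells on transferrin through the transferrin receptor, is stored inside ferritin shells of heavy and light chains, and leaves through ferroportin, the product of Slc40a1. Red pulp macrophages of the spleen take up old red cells, split their haem with haem oxygenase 1 and return the iron through ferroportin, and SpiC is the transcription factor needed for their development. Iron regulatory proteins bind RNA stem-loops of ferritin, ferroportin and transferrin receptor transcripts when iron is scarce, which blocks ferritin translation and stabilises transferrin receptor RNA. Activated T cells raise the transferrin receptor before they divide.

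The promoters of the 3 globin genes are shown because their transcripts were the members with the highest dKO over WT ratios. C57BL/6 mice carry the single haplotype of the beta globin locus, with Hbb-bs and Hbb-bt side by side, and the alpha globin locus holds the near-identical pair Hba-a1 and Hba-a2. The 250 bases before the transcription start were read from RefSeq, build GRCm38.p6, at chr11:32283422-32283671 (plus strand), chr7:103827929-103828178 (minus strand) and chr7:103813924-103814173 (minus strand). Capitals mark GATAAG, the core bound by GATA factors, CACCC, the box bound by KLF1, CCAAT, and ATATAA around the TATA box, on either strand. Neighbouring CCAAT matches on opposite strands run together in Hbb-bt.
Hba-a1: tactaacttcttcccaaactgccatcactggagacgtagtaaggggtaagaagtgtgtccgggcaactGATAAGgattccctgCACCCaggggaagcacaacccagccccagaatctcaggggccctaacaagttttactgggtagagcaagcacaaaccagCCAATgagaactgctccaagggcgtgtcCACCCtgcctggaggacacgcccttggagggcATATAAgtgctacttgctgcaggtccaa
Hbb-bs: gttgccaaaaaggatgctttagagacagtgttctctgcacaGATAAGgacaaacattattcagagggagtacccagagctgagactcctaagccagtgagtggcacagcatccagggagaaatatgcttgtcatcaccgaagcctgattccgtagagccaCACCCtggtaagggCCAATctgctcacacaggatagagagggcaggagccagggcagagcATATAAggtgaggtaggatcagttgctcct
Hbb-bt: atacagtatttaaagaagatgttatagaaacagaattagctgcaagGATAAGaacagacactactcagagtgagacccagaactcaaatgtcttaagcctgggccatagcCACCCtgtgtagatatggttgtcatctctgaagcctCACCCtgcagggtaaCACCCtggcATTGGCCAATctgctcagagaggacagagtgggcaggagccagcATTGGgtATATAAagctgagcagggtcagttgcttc
The 4 motifs were picked as elements of globin promoters. Their presence here, beside their shares elsewhere, is therefore a description and not a test. All 3 windows held all 4 motifs. Over 32851 RefSeq windows of the same length, 6.55% held GATAAG, 52.0% CACCC, 33.8% CCAAT and 9.10% ATATAA, and 0.140% held all 4. ATATAA began 28 bases before the start in Hba-a1, 30 in Hbb-bs and 29 in Hbb-bt, and GATAAG began 182, 209 and 204 bases before it. Windows were available for 7 of the 10 members, and the 6 windows of Tfrc, Fth1, Ftl1 and Spic held between 1 and 2 of the 4 motifs. The upstream windows of Hba-a1 and Hba-a2 shared a run of 247 bases, against a longest shared run of 14 bases between Hbb-bs and Hbb-bt. Because Hba-a2 has no probe of its own in the annotation and the transcripts of these families are near-identical, signal may be shared within each family and the single globin genes are uncertain.

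Values are deposited probe intensities on a linear, background-subtracted scale, and 16 was taken as the floor below which no level was read. Between 12763 and 13218 of 45281 probes on each array exceeded it, and the 14673 probes above it on at least 1 array were kept for the test. The 2 arrays of a replicate number shared 1 distribution of intensities, so ratios of deposited intensity were formed only between dKO and WT of the same number. The targeted Map3k3 was lower in dKO, with 204 on dKO 1 and 246 on dKO 2 where WT 1 had 311 and WT 2 had 387, and both Map3k2 probes were below the floor on all 4 arrays. Where these probes lie relative to the deleted parts is not known here. Xist, transcribed from the inactive X chromosome, was at 327 and 536 on the WT arrays and at 2.96 and 1.09 on the dKO arrays at its brightest probe, while the Y-linked Eif2s3y was at 235 and 377 on the dKO arrays and at 4.04 and 1.57 on the WT arrays. Sex and genotype therefore cannot be told apart in any difference given below. T cell markers were present on all arrays, with Cd3e, a chain of the T cell receptor complex, at 3162 on dKO 1, 4279 on dKO 2, 2250 on WT 1 and 4764 on WT 2.

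The globin transcripts were many times higher in dKO than in WT cells in both replicate numbers. Hba-a1, an alpha chain, was at 240.2 on dKO 1 and 1217 on dKO 2, while WT 1 had 15.99 (just under the floor) and WT 2 had 45.0. The brightest Hbb-bs probe, for an adult beta chain of this haplotype, was at 280.3 and 1701 on the dKO arrays and at 20.1 and 43.4 on the WT arrays. The brightest Hbb-bt probe, for the other adult beta chain, was at 280.1 and 1231 against 20.9 and 41.1. Both dKO arrays were above both WT arrays at these probes, dKO 2 was the highest, and WT 2 was above WT 1. Within number 1 the dKO over WT ratio was at least 15.0 for Hba-a1, 13.9 for Hbb-bs and 13.4 for Hbb-bt. Within number 2 it was 27.0, 39.2 and 29.99.

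**Figure D1:**
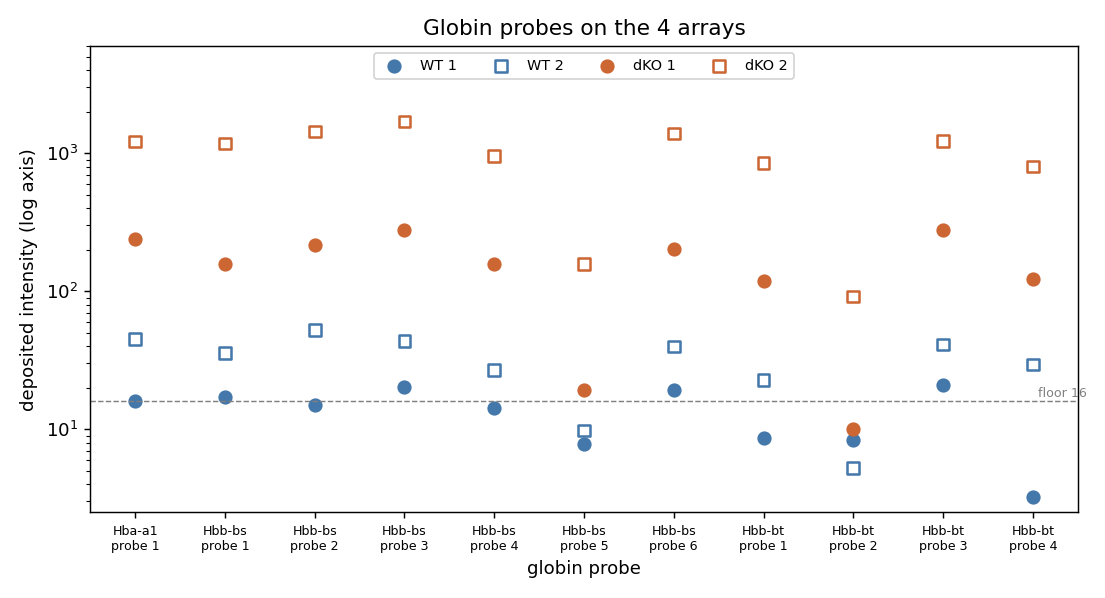
Deposited intensity (log axis) of the 11 globin probes on the 2 WT (blue) and 2 dKO (orange) arrays, circles for replicate number 1 and squares for number 2, with 1 point per array. At 9 of the probes dKO 2 lies between 802 and 1701 and dKO 1 between 119 and 280.3, all above the WT points, and 2 dim probes exceed the floor of 16 on 1 or both dKO arrays.

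The globin probes did not all carry the same signal. Of the 6 Hbb-bs and 4 Hbb-bt probes, 5 and 3 had log2 differences (mean of dKO minus mean of WT, after the floor and quantile normalization) from 3.87 to 4.54, and Hba-a1 had 4.37. At 5 of these 9 bright probes and at both dim ones, WT 1 or both WT arrays were under the floor and set to it, so those differences, and the places drawn from them, depend on the floor. The median over all 11 globin probes was 4.24, and the differences ranged from 3.06 to 4.10 in number 1 and from 4.64 to 5.16 in number 2 for the 9 bright probes. The remaining Hbb-bs probe (ILMN_2544056) was at 19.1 on dKO 1 and 157 on dKO 2 and below the floor on both WT arrays, with at least 1.19-fold and 9.80-fold higher values. The remaining Hbb-bt probe (ILMN_1235372) exceeded the floor on dKO 2 alone, at 91.7. The 9 bright probes took places 2 and 4 to 8 and 10 to 12 of the 14673 kept probes ordered from the highest difference. The dim probes took places 33 and 95. The groups did not overlap at 10 of the 11 globin probes, a count that follows from how the globins were chosen and from which nothing is read. Over all kept probes, 11.9% were higher and 14.2% lower in dKO without overlap, and these shares are the background for every such count below. The embryonic chains Hba-x, Hbb-bh1 and Hbb-y were below the floor on all 4 arrays, as was Hbb-b2, an adult gene of the other beta globin haplotype.

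**Figure D2:**
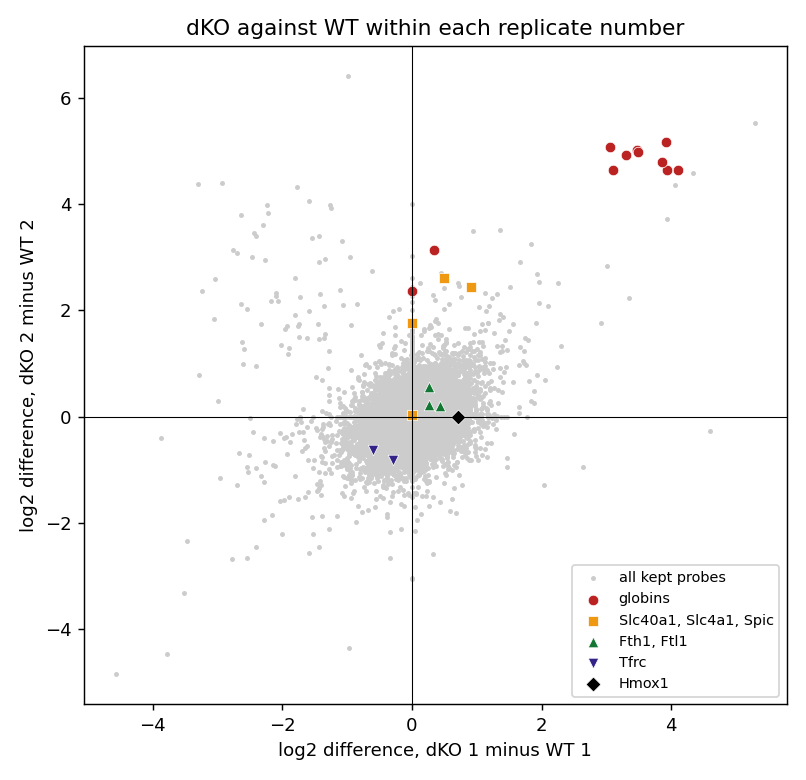
Log2 difference of dKO minus WT in replicate number 1 (horizontal) against number 2 (vertical) for the 14673 kept probes (grey) and the 21 kept probes of the members (coloured by group). The 9 bright globin probes lie at 3.06 or more in number 1 and 4.64 or more in number 2, Slc40a1 lies at 0.49 and 2.62, and Fth1, Ftl1 and Tfrc lie within 0.81 of 0 on both axes.

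Most other red cell genes were below the floor on every array. Slc4a1, the band 3 anion exchanger of the red cell membrane, was at 59.5 on dKO 2 and below the floor on the other arrays (10.4 on dKO 1, 6.00 on WT 1 and 6.89 on WT 2), at least 3.72-fold higher within number 2 and with no ratio in number 1. Of 35 red cell genes listed, 30 had a probe and 20 of those were below the floor on all 4 arrays. Among these 20 were Alas2, the first enzyme of haem synthesis in red cells, Klf1 and Gata1, transcription factors of the lineage, Epb42, Ank1 and Rhag, of the membrane and its skeleton, the carbonic anhydrase Car1, and Fech, which puts iron into haem. Of the 10 measured, 0 were higher and 2 lower in dKO without overlap between the groups, close to the shares over all kept probes. The lower ones were Slc25a37, the mitochondrial iron importer, with a log2 difference of −0.62, and Ube2l6, with −0.78. The median difference was 0.07, against −0.00 over all kept probes. Without the members, and so without Slc4a1, the summed intensity of the measured red cell genes was 335 and 403 on the dKO arrays. It was 381 and 432 on the WT arrays. Gypc, Mkrn1, Slc25a37, Ube2l6 and Isg20 carried most of this sum. Nfe2, Epor and Tspan33 each exceeded the floor on 1 array alone, as did Slc4a1, which is in the counts and the median. Nothing about red cells is therefore read from the counts, the median or the sum. In bulk samples such as these, a different number of cells of 1 type and a different amount of RNA per cell cannot be told apart.

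Slc40a1, the only known cellular iron exporter, had 1 probe above the floor, and its difference rested on 1 WT array. It was at 229 on dKO 1, 269 on dKO 2, 165 on WT 1 and 42.03 on WT 2. Both dKO arrays were above both WT arrays, but WT 1 was much closer to the dKO arrays than to WT 2. The ratio was 1.39 in number 1 and 6.41 in number 2. The log2 difference over all arrays was 1.55, and it was 0.42 without WT 2 and 2.71 without WT 1. The other Slc40a1 probe was below the floor on all 4 arrays. The bright Spic probe was also lowest on WT 2, at 54.7 on dKO 1, 98.6 on dKO 2, 29.6 on WT 1 and 16.6 on WT 2. Its ratios were 1.85 and 5.93. The dim Spic probe was at 16.9 on dKO 2 and below the floor elsewhere.

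Markers of red pulp macrophages, a cell type outside the sorted population, were measured beside Slc40a1 and Spic. Of the 15 such markers other than members, 11 were above the floor on at least 1 array. Of those, 8 were higher in dKO without overlap and 0 lower (11.9% and 14.2% of all kept probes). The list was chosen with earlier results of these data known, and markers of 1 cell type may vary together. The count is therefore a description and not a test. The median log2 difference of the 11 markers was 0.39 in number 1 and 1.35 in number 2, where Slc40a1 had 0.49 and 2.62 and the bright Spic probe 0.91 and 2.44. Adgre1, the macrophage surface protein F4/80, was at 40.7 and 131 on the dKO arrays and 17.9 and 26.8 on the WT arrays. C1qb, a complement chain made by tissue macrophages, was at 90.1 and 132 against 66.1 and 19.0. Vcam1, an adhesion molecule of these macrophages, was at 87.0 and 123 against 59.3 and 26.9. WT 2 was the lowest array for Slc40a1, Spic, C1qb and Vcam1, whereas WT 1 was the lowest for Adgre1 and for the 9 bright globin probes. Axl, a receptor that helps clear dying cells, overlapped between the groups, at 235 and 454 against 305 and 384. C1qa and Treml4, at their brightest probes, exceeded the floor on dKO 2 alone, and the listed markers Cd163, Cd5l, Mertk and Siglec1 were below it on all arrays.

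**Figure D3:**
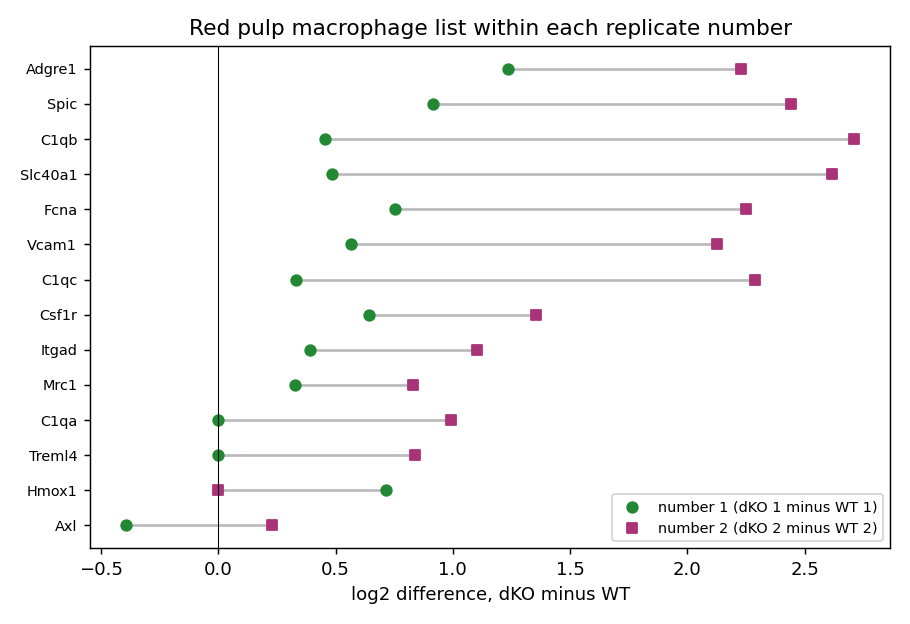
Log2 difference of dKO minus WT for the 14 kept genes of the red pulp macrophage list, circles for replicate number 1 and squares for number 2. Slc40a1 (0.49 and 2.62) and Spic (0.91 and 2.44) lie among C1qb, Fcna, Vcam1 and C1qc, with the higher value in number 2, while Hmox1 has 0.71 in number 1 and 0.00 in number 2.

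The summed intensity of the 11 macrophage markers was 702 on dKO 1, 1228 on dKO 2, 630 on WT 1 and 555 on WT 2, a ratio of 1.12 in number 1 and 2.21 in number 2. Axl carried much of this sum, and over the other 10 markers the ratios were 1.44 and 4.52. The summed intensity of monocyte and neutrophil markers was higher in dKO in number 2 and not in number 1. Over 7 measured of 14 genes it was 900 and 3368 on the dKO arrays and 1146 and 754 on the WT arrays. Lyz1 and Lyz2 carried most of it, with Lyz1 at 692 and 2639 in dKO and 794 and 620 in WT. S100a8, a neutrophil calcium-binding protein, was at 149 on dKO 2 and 6.37, 14.4 and 16.7 on dKO 1, WT 1 and WT 2. Cd14, S100a9, Camp and Ltf exceeded the floor on dKO 2 alone, so nothing is read from their direction. Of 11 platelet and megakaryocyte genes, 9 had a probe and all 9 were below the floor on all arrays. Of 9 B cell genes, 3 were measured, with a sum of 69.4 and 324 on the dKO arrays and 143 and 172 on the WT arrays. The higher sum on dKO 2 came from Cd79b, at 27.9 and 263 in dKO and 90.5 and 91.0 in WT. Cd22 was at 48.3 on dKO 2 and 58.4 on WT 2, and Blnk exceeded the floor on WT 2 alone. The part of these cell types in the values of Slc40a1, Spic, Slc4a1 and the globins was not tested.

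Ferritin, transferrin receptor and Hmox1 did not pass the test, and their differences were far smaller than those of the bright globin probes. By limma with genotype alone, 0 of 14673 kept probes (0%) had an adjusted p under 0.05, with 480 at an unadjusted p under 0.05 and a smallest adjusted p of 0.184. With the replicate number as a block, 34 probes (0.232%) passed, 23 of them higher (0.157%) and 11 lower (0.075%), and none of them was a probe of these 4 genes. The 6 kept probes of these 4 genes each had an adjusted p of 0.9999 by limma with genotype alone.

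The ferritin heavy chain Fth1, which oxidises iron for storage, was at 7405 on dKO 1 and 5419 on WT 1, and at 10260.2 on dKO 2 and 8965 on WT 2, at its first probe (ILMN_2876066). Its second probe (ILMN_2876071) was at 6055 and 10346 against 5115 and 8922. After normalization between numbers the groups did not overlap at either probe, but the ratios were small, at 1.37 and 1.18 in number 1 and 1.14 and 1.16 in number 2. The log2 differences were 0.32 (95% interval −0.19 to 0.82) and 0.24 (−0.29 to 0.76). The light chain Ftl1, which aids the growth of the iron core, was at 921 and 2109 in dKO and 774 and 1426 in WT. Its groups overlapped, with ratios of 1.19 and 1.48 and a log2 difference of 0.41 (−0.40 to 1.22). That difference was 0.063 without dKO 2, 0.21 without WT 1 and 0.76 without dKO 1. The ferritin intervals above come from the fit with genotype alone. When the replicate number was a block, the Ftl1 interval lay wholly on the higher side, at 0.064 to 0.75. Ftl1 did not pass after adjustment over all probes. The block intervals of the Fth1 probes still reached both sides, at −0.075 to 0.71 and −0.13 to 0.61. The second Ftl1 probe was below the floor on all arrays. All 3 ferritin probes were thus higher in dKO within both numbers, as were 25.7% of all kept probes.

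Tfrc differed in the direction opposite to ferritin. Its first probe (ILMN_2619848) was at 163 on dKO 1 and 198 on WT 1, and at 225 on dKO 2 and 404 on WT 2. Its second probe (ILMN_2860804) was at 140 and 184 against 210.2 and 289. After normalization the groups did not overlap at either probe, where 14.2% of all kept probes were lower in dKO without overlap. The dKO over WT ratios were 0.823 and 0.557 at the first probe and 0.664 and 0.637 at the second. The log2 differences were −0.55 (95% interval −1.31 to 0.21) and −0.62 (−1.15 to −0.09), sizes reached or passed in that direction by 4.83% and 3.58% of kept probes. The second interval leaves out 0 before adjustment over all probes and did not pass after it. At the first probe the difference was −0.23 without WT 2 and −0.88 without WT 1.

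Hmox1, which opens the haem ring and frees its iron, was near the floor. It was at 26.9 on dKO 1, 16.8 on WT 1, and 12.7 on both dKO 2 and WT 2. The ratio was 1.601 in number 1 and could not be formed in number 2, where the globin ratios were higher than in number 1. The log2 difference was 0.36 (95% interval −0.47 to 1.19), and it was −0.083 without dKO 1. Its interval was −0.15 to 0.86 with the replicate number as a block. The array with the most globin signal, dKO 2, had no Hmox1 signal above the floor.

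**Figure D4:**
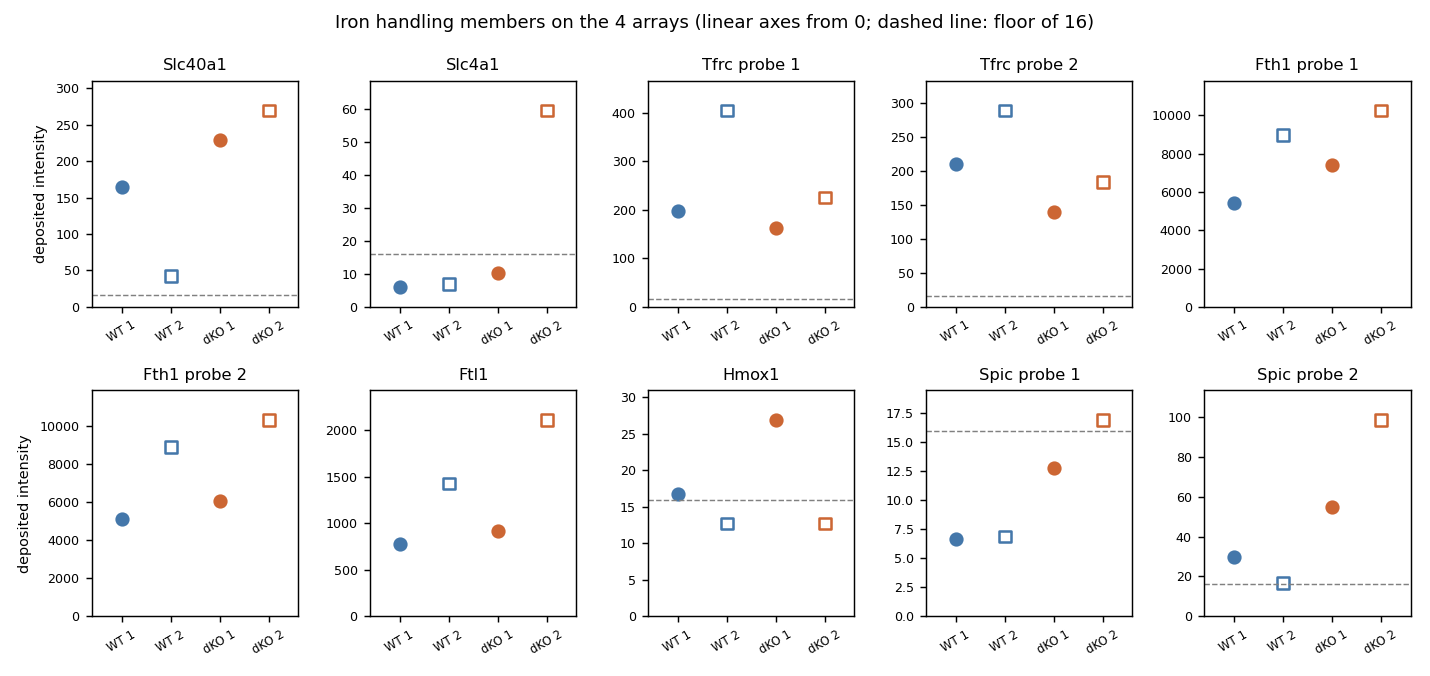
Deposited intensity (linear axes from 0) of the 10 kept probes of Slc40a1, Slc4a1, Tfrc, Fth1, Ftl1, Hmox1 and Spic, with WT in blue, dKO in orange, circles for replicate number 1 and squares for number 2, 1 point per array. Tfrc is lower in dKO than in WT of the same number at both probes (ratios 0.557 to 0.823), Fth1 and Ftl1 are 1.14 to 1.48 times higher, and WT 2 stands apart from the other arrays for Slc40a1.

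Across the wider iron and haem pathways, 8 lists held 112 genes, of which 101 had a probe and 55 were measured above the floor. Slc40a1 is among them and was left out of the counts that follow, because it was chosen for its difference. By limma 0 of the other 54 passed in either direction, with 1 higher and 0 lower at an unadjusted p under 0.05 when each gene is read at its brightest probe. Without overlap between the groups, 12 were higher in dKO and 6 lower. Their median difference was 0.19 on the log2 scale, against −0.00 over all kept probes. The gene with the unadjusted p under 0.05 at its brightest probe was Hebp1, a haem-binding protein, at 30.4 and 35.4 in dKO and 17.1 and 9.86 in WT. Its difference was 0.95 (95% interval 0.49 to 1.42), computed with WT 2 set to the floor.

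Genes of haem synthesis and of haem handling had counts without overlap that lay near the shares over all kept probes. Of 9 measured genes of haem synthesis, 2 were higher and 1 lower without overlap, with a median of 0.06. The higher ones were Alas1, the housekeeping first enzyme, at 0.35, and Slc25a38, the mitochondrial glycine importer, at 0.40, and the lower one was Slc25a37, as above. Other probes of Slc25a38 differed by −0.21 and −0.09. Of 10 measured genes of haem handling and breakdown, 2 were higher and 0 lower without overlap, with a median of 0.24. These were Hebp1 and Pgrmc1, at 0.22. Slc48a1, a haem transporter of the lysosome, differed by 0.57 with overlap, and the biliverdin reductase Blvra by 0.24. Blvrb, the other biliverdin reductase, was lower in number 1 and higher in number 2, at −0.23 and 0.73.

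In iron uptake, 5 of 15 genes were measured, with 1 higher and 1 lower without overlap and a median of −0.06. The lower one was Tfrc. The higher one was Slc11a1, an iron and manganese transporter of macrophage phagosomes, at 107 and 252 in dKO and 83.5 and 85.4 in WT, with differences of 0.36 in number 1 and 1.53 in number 2. Slc11a2, the transporter that releases iron from endosomes, differed by −0.37. In iron storage, 5 of 6 genes with a probe were measured. Besides Fth1, which was higher, the poly(C)-binding proteins Pcbp1 and Pcbp2, which deliver iron to ferritin, were lower without overlap at −0.25 and −0.24, while a second Pcbp2 probe overlapped at −0.28. Ncoa4, the receptor that sends ferritin to the lysosome, differed by −0.37 with overlap, and its other probes by 0.28 and 0.07.

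In the iron export and hepcidin list, 2 of 12 genes with a probe were measured, Slc40a1 and Hfe. Hfe, a regulator of hepcidin that is also made by macrophages, was at 21.3 on dKO 1, 118 on dKO 2 and 21.0 on WT 2 and below the floor on WT 1. It was at least 1.33-fold higher in number 1 and 5.65-fold higher in number 2, and its other kept probe exceeded the floor on dKO 2 alone, at 31.5. Of 5 measured iron sensing genes, 0 were higher and 0 lower without overlap, with a median of 0.11. Ireb2, the iron regulatory protein measured here, differed by 0.19 (0.04 at its other probe) and Fbxl5, which marks it for destruction when iron is plentiful, by −0.02. Its partner Aco1 was below the floor on all arrays. Of 14 measured genes of iron-sulphur cluster assembly, 3 were higher and 1 lower without overlap, with a median of 0.10. Of 5 measured targets of the stress factor NRF2, which also drives Hmox1, 2 were higher and 1 lower, with a median of 0.37. The higher ones were Gclm, a subunit of the glutathione synthesis enzyme, at 0.46, and Srxn1, at 0.37, and the lower one was Osgin1, at −0.55. Txn1 and Prdx1 differed by 0.68 and 0.37 with overlap. Of the 5, 4 were higher in dKO in both numbers and 1 lower, against 25.7% and 27.8% of all kept probes.

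**Figure D5:**
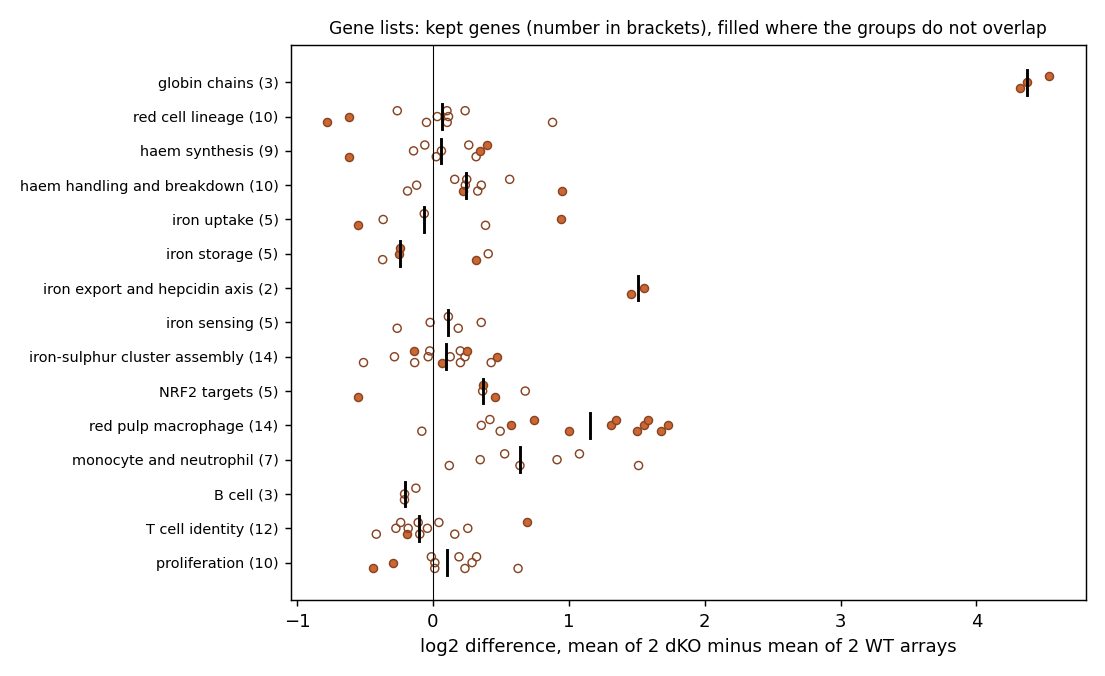
Log2 difference of dKO minus WT for each measured gene of the lists, with 1 point per gene at its brightest kept probe, filled where the 2 dKO and 2 WT arrays do not overlap, and a bar at the median of each list. The 3 globins lie at 4.32 to 4.54. The red pulp macrophage list has a median of 1.155 with the members and 0.999 without them. The medians of the iron, haem, NRF2 and red cell lists lie between −0.24 and 0.37 except for the 2 genes of the export list.

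Transferrin receptor follows cell division in T cells, so genes of proliferation were set beside it. Of 10 measured, 0 were higher and 2 lower without overlap, near the shares over all kept probes, with a median of 0.10. The lower ones were Mcm2, a subunit of the replication helicase, at −0.29, and Myc, at −0.44. Myc passed the filter through the WT arrays alone, at 21.3 and 22.0, and was below the floor on both dKO arrays. Its difference and its place in this count therefore depend on the floor. Of 12 measured T cell identity genes, 1 was higher and 1 lower without overlap, with a median of −0.10. The higher one was Cd6, a receptor that tunes T cell activation, at 0.69, and the lower one was Cd3d, a chain of the T cell receptor complex, at −0.19. Cd44, by which the cells were sorted, differed by −0.42 with overlap, and by −0.06 and −0.19 at its other probes. By limma 0 genes of these lists passed. Cd6 had an unadjusted p under 0.05. Myc did too, but nothing is read from it, because both dKO values were set to the floor.

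Apart from the haemoglobin chains, the genes whose pattern over the 4 arrays lay nearest to the mean globin profile were Fcgr4, St6galnac2, Eif2s3y, Cygb and Ltb4r1. Nearness was the Euclidean distance between log2 values centred on each gene's mean, and it was 1.38, 1.41, 1.57, 1.61 and 1.66. Among the globin probes it reached 2.59, at the dim Hbb-bt probe, which exceeded the floor on dKO 2 alone. The bright globin probes all lay nearer to the profile than these 5 genes. Fcgr4, an antibody receptor of macrophages and neutrophils, was at 56.5 and 325 in dKO and 22.7 and 26.8 in WT. Cygb, an oxygen-binding globin of non-red cells, was at 28.5 and 204 in dKO and below the floor in both WT arrays. St6galnac2, a sialyltransferase, had ratios of 18.6 and 26.0 in the 2 numbers, nearer to each other than those of Fcgr4 at 2.49 and 12.1. The Y-linked Eif2s3y is among these genes, and the groups differ in sex-linked transcripts.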

How the data were processed

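RNA from 2 dKO and 2 WT samples was measured on Illumina bead arrays. Per the labels' protocols, RNA was extracted with TRIZOL, cleaned on a column and labelled with an Ambion kit. What was deposited is a linear intensity for each probe. Values below 0 show that background was subtracted. The authors' normalization is not stated. Judged by the numbers themselves, dKO and WT arrays of 1 number have sorted intensities within 0.0846 and 0.0793 of each other, while arrays of different numbers differ by up to 6979. A second deposited table was not used, because its 8 columns carry names that match no sample.

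Values under a floor of 16 were set to it, and log2 intensities of the 4 arrays were then quantile normalized. Probes were named from GEO's platform annotation, with 34885 probes of 1 symbol, 18 of several and 10378 of none, and 34807 matched RefSeq by Entrez ID. The 14673 probes above the floor on at least 1 array were fitted with limma 3.58.1 in R 4.3.3 (lmFit, eBayes with trend, genotype alone, two-sided, Benjamini-Hochberg over all kept probes, threshold 0.05). In lists, a gene is its kept probe of highest mean. Fold bounds written "at least" are against the floor.

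All members, any member of the 16 lists and the 5 genes nearest to the globin profile may be named. The members and lists were chosen with earlier results of these data known. Alternatives changed the normalization, floor, filter, probe rule, variance model and replicate block, or left out 1 array. The number of arrays limits the precision.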

Additional observations from a re-analysis of the deposited data

How the results depend on the processing

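Results were recomputed under 18 alternatives, of which the fit with no filter and without trend was chosen after seeing the data, because the trend could not be fitted without a filter. By limma the count of probes called over the whole array was 0 and stayed 0 in 13 of them, with 0 to 0 when an array was left out. It was 9 with medians equalized, 5 with log2(intensity + 16), 2 with no filter and without trend, 34 with the replicate block and 70 with the replicate block on the authors' values. The cause was not tested. No label ties same-numbered arrays to a shared animal, batch or day. The deviations of same-numbered arrays from their group means correlated at 0.52 over probes, and the arrays of a number share 1 distribution. With the replicate block no call changed for the iron, haem and NRF2 genes, with adjusted p from 0.282 to 0.576 for the probes of Tfrc, Fth1, Ftl1 and Hmox1. No list gene of iron, haem or NRF2 passed under any of the 18 alternatives.

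The median globin difference ranged from 3.07 to 5.38 and Slc40a1 from 0.42 (without WT 2) to 2.71 (without WT 1), both extremes with an array left out. A single probe had values under 14 to 18 of them, since dim probes drop out under stricter filters or probe rules. Of 352 such differences 1 had another sign, that of Hmox1 without dKO 1 (−0.083, range −0.083 to 0.76). The alternatives for the 8 red pulp macrophage genes higher without overlap were added after seeing the data. The count became 5 of 6 when each probe had to exceed the floor on every array, where fewer genes remain. With an array left out it was 8 to 11, but 1 array is then set against 2, where non-overlap is easier to reach. Without dKO 2, 1 gene was lower. Signals near the floor, as for Hmox1, Slc4a1 and the dim Spic probe, allow no level to be read. With an array left out, the lone array is assumed to vary like the other group.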
